A study of Mus musculus with 26 samples.

Results

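The change over time in culture with the FFAR3 agonist AR420626 was measured by comparing 5 libraries harvested at day 6 with 5 libraries harvested at day 2, all from lung group 2 innate lymphoid cells (ILC2s). These 10 libraries were chosen by their labels, out of 26 in the series, and the days were paired by mouse, because the cells of mice 1 to 5 were each split between conditions. The donors were female CC030/GeniUnc mice, a strain of the Collaborative Cross, so that 1 inbred strain stands behind every value. ILC2s were sorted from the lung as lineage-negative cells carrying CD90, CD127 and ST2 and plated at 3000 cells per well. Every well received IL-33 at 10 ng/mL, TSLP at 10 ng/mL and human IL-2 at 100 U/mL, on both days and in both treatments. The agonist was present at 10 µM at day 2 and at day 6, so the comparison describes days in culture with the agonist and has no untreated time point of its own. The 10 DMSO vehicle libraries of the same mice are given beside it where they differ.

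ILC2s are tissue-resident lymphocytes without antigen receptors that answer the epithelial alarmins IL-33 and TSLP with type 2 cytokines. IL-2 family cytokines sustain their growth. FFAR3 is a receptor for short-chain fatty acids, and AR420626 is a synthetic agonist of it. Mouse chromosome 16 holds several genes that set the threshold for lymphocyte activation, among them the CD200 receptors, Tigit, Cd80, Cd47 and the type I interferon receptor genes, and the mitochondrial chromosome (M) encodes subunits of the respiratory chain.

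Chromosomes 16 and M are described apart from the rest since the agreement of gene levels with those of naive ILC2s was far closer there than elsewhere. Across the 664 protein-coding genes of chromosome 16, the mean level per exonic kilobase at day 6 followed that of 3 naive C57BL/6J libraries with Spearman's rho of 0.76, and on chromosome M, over 13 genes, rho was 0.97. On the other 19 chromosomes rho ran from 0.05 to 0.31. These correlations are across genes of pooled libraries and describe the tables only. Values outside chromosomes 16 and M are therefore given last, under the symbol to which the reads were counted.

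The day 2 libraries of mice 1, 2 and 3 stood apart. Within each library, rho of the chromosome 16 levels with those of naive cells was 0.16, 0.20 and 0.14 in these mice, against 0.61 in mouse 4 and 0.73 in mouse 5, and 0.72 to 0.77 in the 5 day 6 libraries. The 70 Krtap and Olfr genes of chromosome 16, which belong to hair and olfactory epithelium, took 2.55%, 2.27% and 2.47% of its counts at day 2 in mice 1, 2 and 3, 0.72% in mouse 4 and 0.29% in mouse 5. Per kilobase of exon, that is 75.1%, 66.7% and 72.6% of the rate over the whole chromosome in mice 1, 2 and 3, 21.3% in mouse 4 and 8.59% in mouse 5, against 4.30 to 11.9% at day 6. As counts per kilobase at day 2, it is 5.21, 5.83 and 4.93 in mice 1, 2 and 3. For any gene named below, a day 2 level near that rate in those mice cannot be told from this background. At day 6 the Krtap and Olfr genes took 0.15 to 0.40% of chromosome 16 counts, lower in 5 of 5 mice (exact paired permutation test, two-sided, p = 0.0625, the smallest that 5 pairs allow). Only 2.06 to 4.09% of the alignments tallied were counted in genes at day 2, and 4.76 to 5.64% at day 6. That share was higher at day 6 in 5 of 5 mice (exact paired permutation test, p = 0.0625), and why it was low was not tested. Counts in genes numbered 227445 in the day 2 library of mouse 4, from 894953 to 1171015 in the other day 2 libraries and from 1080761 to 1420240 at day 6. Chromosome 16 held 3.02%, 2.91% and 2.79% of them at day 2 in mice 1, 2 and 3, 6.13% in mouse 4, 7.88% in mouse 5, and 6.93 to 8.07% at day 6 (exact p = 0.125). Genes called with all 10 libraries are accordingly given again with the day 2 libraries of mice 1, 2 and 3 left out, which sets the day 2 libraries of mice 4 and 5 against all 5 of day 6 without pairing.

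**Figure D1:**
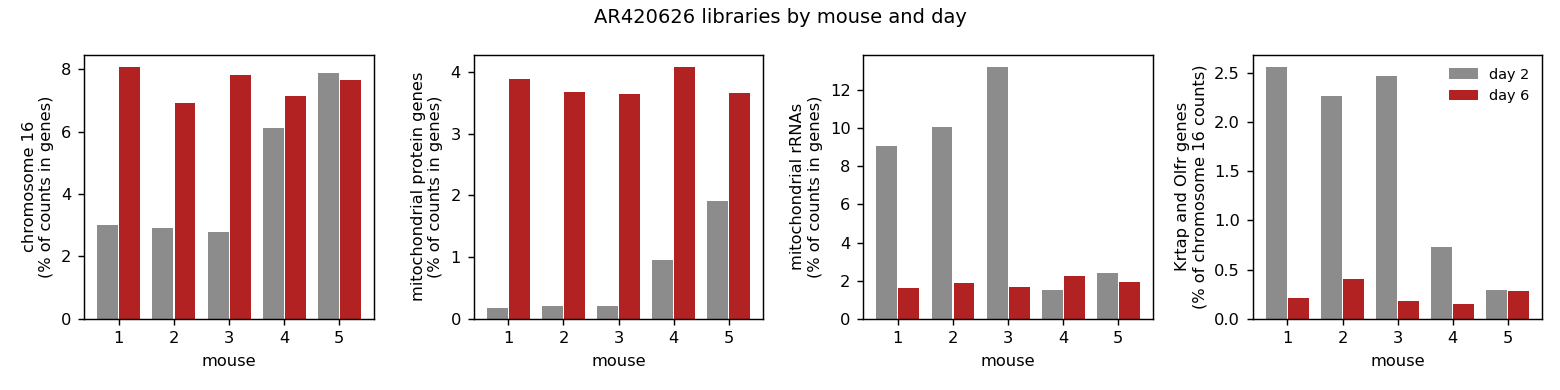
Shares of counts in the 10 AR420626 libraries by mouse (x axis), with day 2 in grey and day 6 in red: chromosome 16, mitochondrial protein genes and mitochondrial rRNAs as percentages of counts in genes, and Krtap and Olfr genes as a percentage of chromosome 16 counts. Day 2 of mice 1, 2 and 3 combines a chromosome 16 share near 3% with a Krtap and Olfr share above 2%, while the day 6 libraries differ little from each other.

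On chromosome 16, genes that changed with time in AR420626 culture were almost all higher at day 6. Of 1599 genes, 558 passed the filter on low counts, and 150 of these were called higher and 1 lower (edgeR quasi-likelihood test with the mouse as a block, Benjamini-Hochberg adjusted p under 0.05 over all 14731 genes tested). That is 26.9% of the genes tested on the chromosome, beside 10.0% called higher over all genes tested. The median log2 fold change was 1.18 on chromosome 16 and -0.26 over all genes. Scaling the libraries on chromosome 16 alone lowered all log2 fold changes by a median of 1.26 and turned the split into 92 higher and 53 lower. Of the 150 genes called higher, 75 were still called higher on that scale and none changed sign. Without the day 2 libraries of mice 1, 2 and 3, 62 of 600 genes were called higher (10.3%, beside 4.98% over all genes) and 1 lower (0.167%). Of the 150 genes, 54 were called higher there too and 149 kept a positive log2 fold change. The exception, named for this, was Gm7204, at 2.59 (edgeR adjusted p = 0.0454) and -0.26 (adjusted p = 0.842). Leaving out 1 mouse with both its libraries gave 36, 33, 28, 62 and 290 genes called higher for mice 1 to 5, so the count fell without mouse 1, 2, 3 or 4 and rose without mouse 5. In bulk RNA such as this, more cells expressing a gene and more RNA per cell cannot be told apart.

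Tigit, the gene of an inhibitory receptor that binds the nectin-like ligands CD155 and CD112, rose further than any other gene of an immune receptor in the lists examined. It lies at chr16:43648867-43664146 (minus strand, mm10/GRCm38). At day 2 its level was 4.30, 2.64, 4.27, 4.59 and 5.20 CPM (counts scaled to a library total common to all libraries) in mice 1 to 5, and at day 6 it was 511, 153, 536, 289 and 342 CPM. All day 2 libraries were near the bottom of the scale, including those of mice 4 and 5, and the 2 groups were far apart. The log2 fold change was 6.09 ± 0.77 (SE, n = 5 mice, edgeR adjusted p = 0.0011), and without the day 2 libraries of mice 1, 2 and 3 it was 6.12 (adjusted p = 0.000406). Tigit passed the threshold under each of the 15 alternative analyses in which it was tested, with log2 fold changes from 4.65 to 6.59.

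The 250 bases before the RefSeq start sites of Tigit (chr16:43664185-43664434, minus strand, GRCm38.p6) and of Cd80 (chr16:38458683-38458932, plus strand) are shown. Both genes rose on either set of day 2 libraries. The windows of Ifnar1, Runx1, Cd47 and Pigz, which rose on either set too, were also scanned. Only Tigit and Cd80 held a match to a motif below, and the other windows held none. Whether any factor binds these sites was not tested. Capitals mark matches, on either strand, to the RUNX core TGTGGT (read as ACCACA on the other strand), the STAT-type palindrome TTCNNNGAA or the AP-1-type TGANTCA. Over all 32851 promoter windows of this length, 14% hold the first, 7.02% the second and 6.75% the third. Of 127 windows of chromosome 16 genes called higher, 11.8%, 4.72% and 3.94% do, beside 12.4%, 7.10% and 5.13% of 507 windows of genes tested there.
Tigit: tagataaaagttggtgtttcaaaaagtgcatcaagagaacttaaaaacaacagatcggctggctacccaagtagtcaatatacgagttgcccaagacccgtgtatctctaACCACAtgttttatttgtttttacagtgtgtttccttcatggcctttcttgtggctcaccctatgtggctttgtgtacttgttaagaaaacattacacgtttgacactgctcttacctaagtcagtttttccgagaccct
Cd80: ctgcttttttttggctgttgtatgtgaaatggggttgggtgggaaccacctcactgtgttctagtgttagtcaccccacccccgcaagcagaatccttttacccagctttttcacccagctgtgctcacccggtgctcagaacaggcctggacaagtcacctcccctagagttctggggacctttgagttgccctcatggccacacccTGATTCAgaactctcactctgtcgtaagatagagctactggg

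Of 12 costimulatory and inhibitory receptor genes on chromosome 16, 11 were tested, 5 were called higher and none lower, with all 10 libraries and equally without the 3 day 2 libraries. This count, and that of each list below, stands beside 26.9% of genes called higher on the chromosome with all libraries and 10.3% without the 3, and no list was tested against the chromosome. The 5 were Tigit, Cd200r1, Cd47, Cd80 and Cblb. Cd47, which encodes the broadly expressed ligand that restrains phagocytosis, had day 2 levels of 32.0, 63.5, 25.6, 250.1 and 561 CPM and day 6 levels of 2534, 1582, 2394, 2440 and 2214 CPM. Day 2 thus spread widely, with mice 4 and 5 highest, yet every day 6 library lay above it (log2 fold change 4.32 ± 1.30, edgeR adjusted p = 0.0453, and 2.42 without the 3 libraries, adjusted p = 0.0209). Cd47 was named after its values had been seen. Cd80, the gene of a ligand for CD28 and CTLA-4 usually studied on antigen-presenting cells, was at 10.5, 5.29, 17.1, 13.8 and 14.7 CPM at day 2 and at 102, 53.5, 48.9, 71.3 and 62.2 CPM at day 6. Its day 2 levels were alike in all 5 mice, but rested on 22, 14, 36, 6 and 17 counts over 3703 exonic bases. In mice 1, 2 and 3 the Krtap and Olfr genes took 5.21, 5.83 and 4.93 counts per kilobase at day 2. Cd80 was thus not far from that background in mice 1, 2 and 3. The log2 fold change of 2.26 ± 0.42 (edgeR adjusted p = 0.00599) was 2.18 without the 3 day 2 libraries. Cblb, an E3 ubiquitin ligase that dampens antigen-receptor and costimulatory signalling, went from 38.3, 30.6, 30.4, 27.5 and 35.5 CPM to 125, 103, 84.2, 111 and 127 CPM. On these scaled levels the increase was small and alike in the 5 mice. The log2 fold change was 1.49 ± 0.42 (edgeR adjusted p = 0.0343), and 1.73 without the 3 libraries (adjusted p = 0.0276). Over the alternative analyses it ran from 0.24 to 1.77, so its size depended on the scaling and the libraries used. Raw counts of Cblb were 80, 81, 64, 12 and 41 at day 2 and 102, 144, 62, 87 and 110 at day 6, over 10475 exonic bases. In mice 1, 2 and 3 the day 2 counts were not far above the same background per kilobase. Among the members that did not pass the test, Alcam, a cell adhesion molecule, differed by 2.46 (adjusted p = 0.114) and Nectin3, a ligand family member of TIGIT and CD96, by -0.87 (adjusted p = 0.154).

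**Figure D2:**
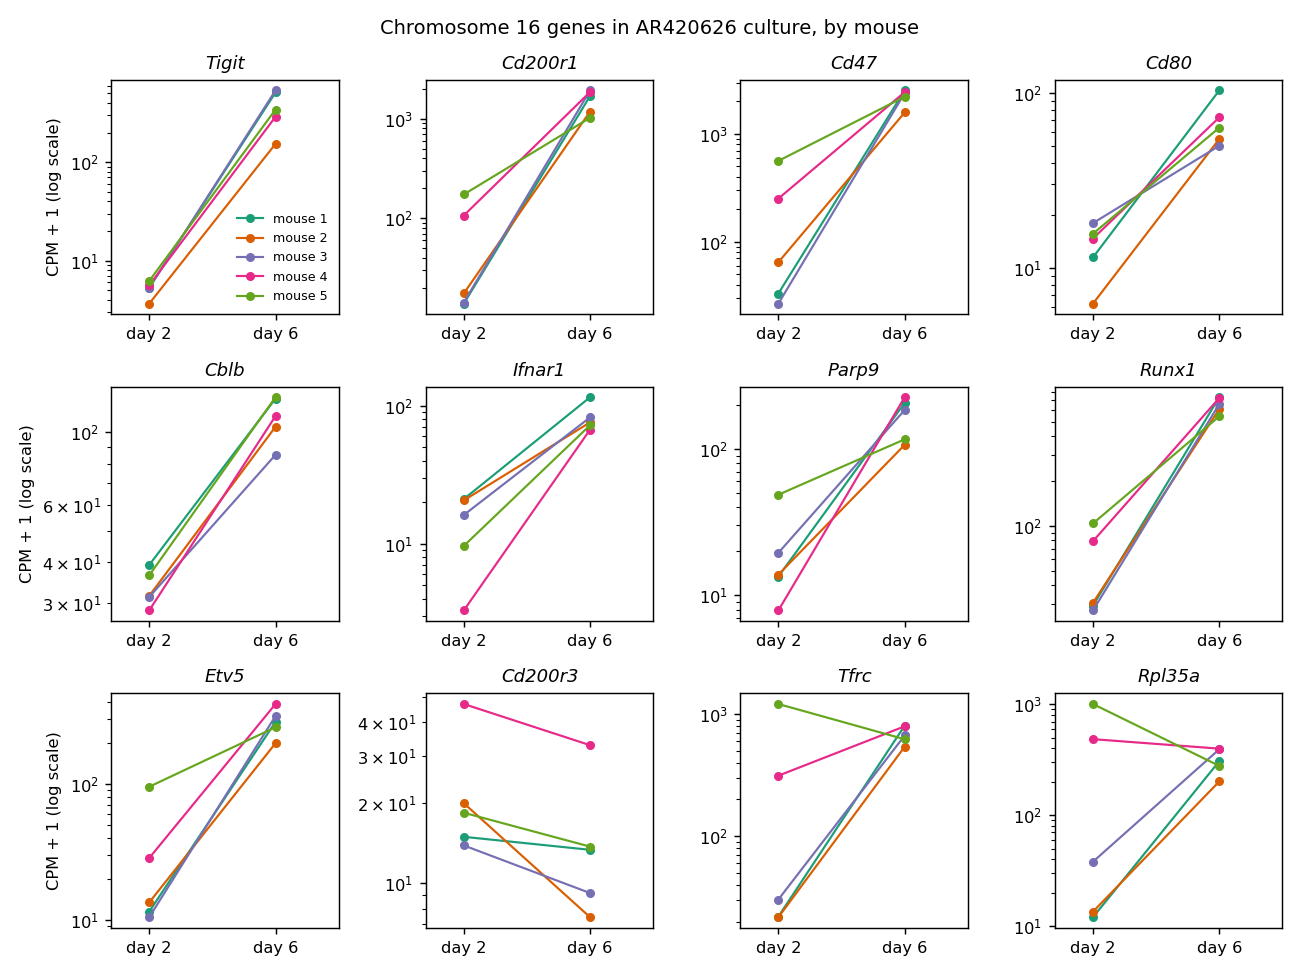
Levels of 12 chromosome 16 genes in AR420626 culture, with day on the x axis, CPM + 1 on a log y axis and 1 coloured line per mouse. Tigit, Cd80, Cblb and Ifnar1 start from low day 2 levels in all 5 mice, whereas for Tfrc and Rpl35a the day 2 library of mouse 5 lies above its day 6 library.

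The CD200 receptor genes lie side by side on chromosome 16, from position 44765736 to 44981380, and had unlike values. CD200R1 is the inhibitory receptor for CD200, and the other members are thought to couple to activating adaptors. Cd200r1 had day 2 levels of 12.9, 16.6, 13.3, 106 and 172 CPM and day 6 levels of 1685, 1175, 1915, 1848 and 1018 CPM, with no overlap. Its log2 fold change was 5.22 ± 1.26 (edgeR adjusted p = 0.0185), and 3.41 without the 3 libraries (adjusted p = 0.00364). Cd200r4 was called higher with all libraries at 2.93 ± 0.80 (edgeR adjusted p = 0.0312) and not without the 3 libraries, at 1.41 (adjusted p = 0.158). Its day 6 library of mouse 2, at 27.1 CPM, lay below the day 2 library of mouse 5, at 43.3 CPM. Cd200r2 was at 12.3, 9.98, 19.0, 12.7 and 13.8 CPM at day 6 and at or below 8.69 CPM at day 2 (log2 fold change 1.45, adjusted p = 0.304). Cd200r3, which is otherwise known from basophils and mast cells, was at 13.9, 18.9, 12.8, 45.9 and 17.3 CPM at day 2 and at 12.3, 6.42, 8.14, 31.8 and 12.7 CPM at day 6. It was the only CD200 receptor gene with a lower level at day 6 in all 5 mice, but the difference of -0.92 ± 0.48 did not pass the test (edgeR adjusted p = 0.249). Its counts over 5984 exonic bases were 29, 50, 27, 20 and 20 at day 2 and 10, 9, 6, 25 and 11 at day 6. Per kilobase, Krtap and Olfr genes took 5.21, 5.83, 4.93, 0.76 and 1.77 counts at day 2. At day 6 they took 1.57, 3.00, 1.16, 0.94 and 1.76. Cd200r3 lay near that background in mice 1 and 3 on both days. How far the background accounts for the lower level was not tested.

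Of 5 cytokine and interferon receptor chains, 2 were called higher with all libraries and 1 without the 3 of day 2. Ifnar1, a chain of the receptor for type I interferons, was at 20.1, 19.6, 15.2, 2.29 and 8.66 CPM at day 2 and at 114, 74.9, 81.4, 66.2 and 71.4 CPM at day 6. Here mice 4 and 5 had the lowest day 2 levels, and the log2 fold change was larger without mice 1, 2 and 3 at day 2 (3.62, edgeR adjusted p = 0.0017) than with them (2.43 ± 0.44, adjusted p = 0.00559). The larger fold change rests on few day 2 counts, 1 in mouse 4 and 10 in mouse 5. In mice 1, 2 and 3 the counts were 42, 52 and 32 over 5940 exonic bases. Krtap and Olfr genes took 5.21, 5.83 and 4.93 counts per kilobase in those libraries. Il10rb, a chain shared by the receptors for IL-10, IL-22 and type III interferons, was called higher at 2.14 (adjusted p = 0.0293) with all libraries and not without the 3, at 1.06 (adjusted p = 0.409). Its day 2 level of 38.1 CPM in mouse 5 was above 3 of the day 6 libraries, which ranged from 26.7 to 70.1 CPM. Ifnar2 and Ifngr2 gave 1.23 (adjusted p = 0.115) and 1.21 (adjusted p = 0.11). The annotation holds a readthrough gene, Gm21970, across Ifnar2 and Il10rb, to which reads of either could be lost in counting.

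Genes induced by interferon or controlling MHC expression gave 5 called higher of 9 tested, and 3 of 9 without the 3 libraries. The 3 were Parp9, Dtx3l and Nlrc3. Parp9 and Dtx3l are neighbours on opposite strands that share a bidirectional promoter, and their proteins form a complex of a mono-ADP-ribosyltransferase and a ubiquitin ligase. Parp9 went from 12.4, 12.8, 18.5, 6.88 and 47.6 CPM to 205, 106, 183, 224 and 115 CPM, and Dtx3l from 11, 18.9, 17.1, 41.3 and 65.8 CPM to 192, 222, 178, 251 and 212 CPM. Neither overlapped between the days, and the log2 fold changes were 3.00 ± 0.59 and 2.81 ± 0.59 (edgeR adjusted p = 0.00747 and 0.00949), and 2.45 and 1.91 without the 3 libraries. At day 2 in mice 1, 2 and 3, Parp9 had 26, 34 and 39 counts over 4872 exonic bases. Dtx3l had 23, 50 and 36 over 5725. Krtap and Olfr genes took 5.21, 5.83 and 4.93 counts per kilobase there, so neither gene was far from that background. Nlrc3, which encodes an inhibitory NOD-like receptor, gave 2.42 (adjusted p = 0.0167), and 1.83 without the 3 libraries. Nfkbiz, encoding the nuclear NF-κB co-factor IκBζ, and Socs1, encoding a feedback inhibitor of JAK kinases, were called higher with all libraries at 2.64 and 4.92 (adjusted p = 0.0311 and 0.0497) and not without the 3 (0.96 and 1.37, adjusted p = 0.242 and 0.173). Socs1 was already at 216 and 795 CPM at day 2 in mice 4 and 5, below its day 6 range of 1118 to 1508 CPM, and at 4.74 to 15.8 CPM in mice 1, 2 and 3. The interferon-induced GTPase genes Mx1 and Mx2 of this list did not pass the test.

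Transcription factors showed 9 called higher of 20 tested, and 3 of 20 without the 3 libraries, which were Runx1, Etv5 and Crebbp. Runx1, a lymphocyte transcription factor, was at 28.2, 29.5, 26.1, 78.0 and 103 CPM at day 2 and at 734, 611, 659.6, 725 and 546 CPM at day 6. Mice 4 and 5 were higher than the others at day 2 and were not at day 6. In mice 1, 2 and 3 the day 2 counts of Runx1 were 59, 78 and 55 over 12025 exonic bases. Krtap and Olfr genes took 5.21, 5.83 and 4.93 counts per kilobase there, so Runx1 was near that background. The log2 fold change of Runx1 was 3.63 ± 0.86 (edgeR adjusted p = 0.0175), and 2.80 without the 3 libraries (adjusted p = 0.00505). Etv5, an ETS factor induced by MAP kinase signalling, rose from 10.5, 12.5, 9.48, 27.5 and 94.4 CPM to 285, 198, 315, 386 and 260.1 CPM (3.59 ± 0.74, adjusted p = 0.00877, and 2.16 without the 3 libraries, adjusted p = 0.0235). Its day 2 counts in mice 1, 2 and 3, 22, 33 and 20 over 4103 exonic bases, were also not far from the background. The co-activator gene Crebbp, named after its values had been seen, gave 2.25 (adjusted p = 0.0334), and 1.81 without the 3 libraries (adjusted p = 0.0364). Gabpa, which encodes a subunit of the nuclear respiratory factor GABP, and Cebpd were called higher at 4.57 and 1.90 (adjusted p = 0.029 and 0.0232) with all libraries, and gave 1.92 and 1.04 without the 3 (adjusted p = 0.0907 and 0.238).

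Of 21 genes of DNA replication, repair and division, 5 were called higher with all libraries and none without the 3. Among them were Nde1, a mitotic dynein regulator, Cip2a, an inhibitor of the phosphatase PP2A, Rnf168, a ubiquitin ligase of the DNA damage response, and the SUMO protease gene Senp5, at 3.13, 2.88, 1.62 and 2.65 (adjusted p = 0.0198, 0.0238, 0.0275 and 0.0287). Without the 3 libraries they gave 1.34, 0.99, 1.02 and 1.92, with adjusted p from 0.0568 to 0.358. Cip2a was at 13.4, 14, 24.2, 20.7 and 210.4 CPM at day 2 and at 205 to 255 CPM at day 6. The list had a median log2 fold change of 1.62 with all libraries and 0.71 without the 3.

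None of 14 genes of translation and the ribosome was called, and their median log2 fold change moved from 1.90 to 0.10 without the 3 libraries. Rpl35a, a protein of the large ribosomal subunit, was at 11, 12.5, 37.0, 484 and 1006 CPM at day 2 and at 306, 200.4, 392, 397 and 277 CPM at day 6, so that mice 4 and 5 had more at day 2 and mice 1, 2 and 3 more at day 6. Rpl24 gave 3.93 (adjusted p = 0.0831), Eif4a2, an RNA helicase of translation initiation, 3.62 (adjusted p = 0.096), and the mitochondrial ribosome genes Mrps6 and Mrpl39 1.94 and 1.39 (adjusted p = 0.0718 and 0.0924). The summed level of the list in the day 2 library of mouse 5, 5286 CPM, exceeded the day 6 range of 2551 to 3945 CPM.

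Tfrc, the transferrin receptor gene through which dividing lymphocytes take up iron, was likewise highest in the day 2 library of mouse 5, with 21.0, 20.8, 29.4, 312 and 1206 CPM at day 2 and 803, 539, 666, 792 and 620.4 CPM at day 6. It and Rpl35a were named after their values had been seen, and neither was called (adjusted p = 0.155 and 0.351). Among 256 chromosome 16 genes with a mean of at least 50 counts, 37 were higher in the day 2 library of mouse 5 than in every day 6 library, including also Cct8, Gart, Naa50 and Hes1. No other gene of nutrient uptake and metabolism gave a call on both sets of libraries except Gbe1, the glycogen branching enzyme, which went from 8.61, 7.93, 15.2, 0 and 5.20 CPM to 22.1, 27.8, 58.4, 42.0 and 29.9 CPM (1.96 ± 0.56, edgeR adjusted p = 0.0365, and 3.31 without the 3 libraries, adjusted p = 0.017). The larger fold change rests on 0 and 6 day 2 counts in mice 4 and 5. In mice 1, 2 and 3 Gbe1 had 18, 21 and 32 counts over 5352 exonic bases. Krtap and Olfr genes took 5.21, 5.83 and 4.93 counts per kilobase there, so Gbe1 was near that background. Hspa13, an Hsp70-family chaperone, was called with all libraries at 2.80 (adjusted p = 0.0322) and gave 1.51 without the 3 (adjusted p = 0.0874), Dnajb11, an ER co-chaperone, lay at the threshold at 3.21 (adjusted p = 0.0501), and Pcyt1a, of phosphatidylcholine synthesis, gave 1.14 (adjusted p = 0.104). The 14 genes tested in this list gave 2 calls higher, and 1 of 15 without the 3 libraries.

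Nuclear genes of mitochondria and respiration numbered 15 tested, of which 4 were called higher with all libraries and none without the 3. The median log2 fold change was 2.52 and 0.34. The 4 were Slc25a1, the mitochondrial citrate carrier, at 3.02, Sod1, the copper-zinc superoxide dismutase, at 3.60, Txnrd2, a mitochondrial thioredoxin reductase, at 1.81, and Trap1, a mitochondrial Hsp90 chaperone, at 2.23 (edgeR adjusted p from 0.0257 to 0.0381). Without the 3 libraries these were 0.94, 1.29, 1.65 and 1.00 (adjusted p from 0.122 to 0.363). Of these, Trap1 alone had day 6 levels above all of day 2, at 92.7 to 183 CPM against 11 to 90.9 CPM.

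Kinases and signal adaptors gave 5 called higher of 18 tested, and 2 of 18 without the 3 libraries. Arhgap31, a GTPase-activating protein for RAC1 and CDC42, was one of the latter 2, with 37.8, 46.5, 26.6, 13.8 and 63.2 CPM at day 2 and 199, 172, 179, 251 and 242 CPM at day 6 (2.31 ± 0.58, edgeR adjusted p = 0.0219, and 2.32 without the 3 libraries). The other was Cblb. Pak2, a kinase downstream of the same GTPases, and the adaptor gene Crkl were called with all libraries at 3.20 and 1.76 (adjusted p = 0.0422 and 0.0462), and gave 1.33 and 0.66 without the 3 (adjusted p = 0.152 and 0.399). Of 12 genes of the proteasome and ubiquitin, 5 were called higher, and 2 without the 3 libraries. Ufd1, of the p97 segregase complex, and Fbxo45, a ubiquitin ligase subunit, gave 3.14 and 2.11 (adjusted p = 0.014 and 0.0301) with all libraries, and neither was called without the 3, at 1.86 and 0.50 (adjusted p = 0.073 and 0.604).

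**Figure D3:**
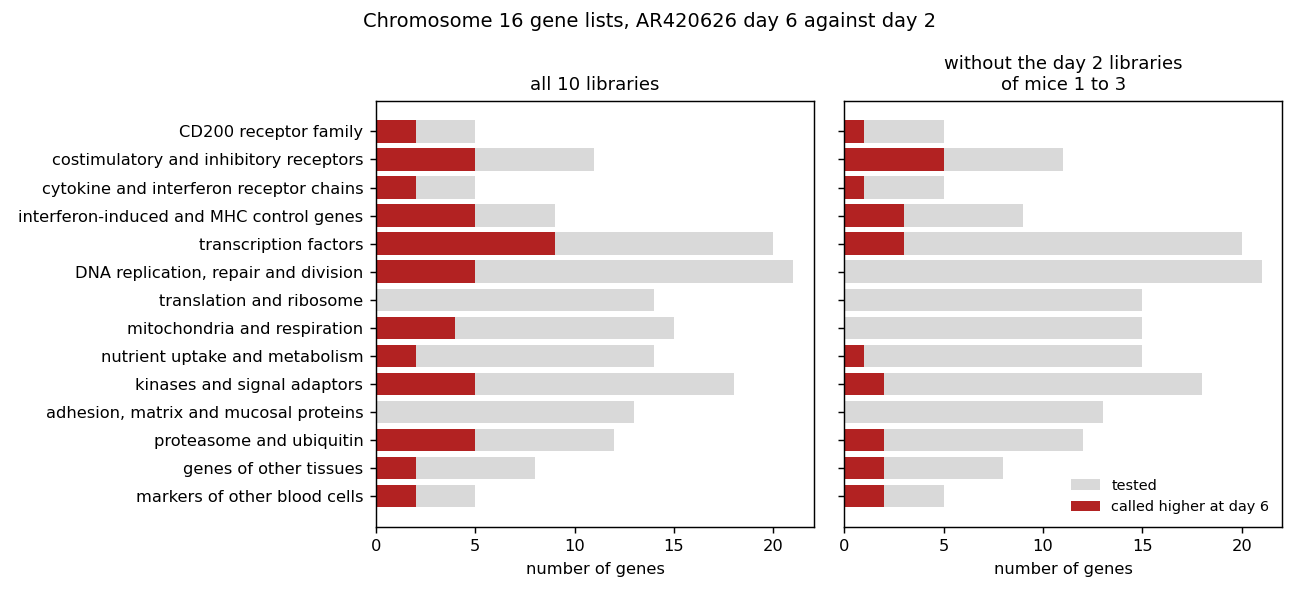
Number of chromosome 16 genes tested (grey) and called higher at day 6 (red) in each of 14 gene lists, with all 10 libraries on the left and without the day 2 libraries of mice 1 to 3 on the right. The receptor list keeps 5 calls, while the lists for DNA replication and for mitochondria go to 0.

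Adhesion, matrix and mucosal protein genes gave no call among 13 tested, with a median log2 fold change of -0.41. Muc4 and Muc13, membrane mucins of epithelia, gave -0.91 and -1.81 (adjusted p = 0.159 and 0.201). Genes of other tissues gave 2 called higher of 8 tested on both sets of libraries. These were Tnp2, a transition protein of spermatids, from 3.83, 1.51, 5.69, 6.88 and 31.2 CPM to 167, 53.5, 185, 227 and 243 CPM (4.40 ± 0.58, edgeR adjusted p = 0.00188, and 3.02 without the 3 libraries), and Kcnj6, a neuronal potassium channel, from 18.4 to 21.9 CPM at day 2 to 49.2 to 107 CPM at day 6 (1.60 ± 0.39, adjusted p = 0.0203, and 1.91 without the 3 libraries). Grik1 and Robo2, both neuronal, gave -0.84 and -0.67 (adjusted p = 0.295 and 0.308). Tnp2 (chr16:10787936-10788660) lies upstream of Socs1 (chr16:10782240-10785536) on the same strand, and whether reads from the Socs1 region reached it was not tested. Markers of other blood cells on chromosome 16 numbered 20, of which 5 passed the filter and 2, Arhgap31 and Cd80, were called higher. The summed level of all 20 was 89.5 to 144 CPM at day 2 and 293 to 409 CPM at day 6. Arhgap31 and Cd80 carried this difference, going from 337 to 942 and from 95 to 304 counts over the 5 libraries of a day. Cd200r3 went from 146 to 61, Cd86 from 91 to 40, the plasma cell gene Tnfrsf17 from 40 to 10 and the immunoglobulin gene Iglc2 from 29 to 0 counts. Other markers did not fall. The immunoglobulin genes Iglc1 and Iglc3 went from 12 to 18 and from 13 to 14, Vpreb1 from 28 to 31 and Itgb5 from 95 to 112 counts. Stfa1 stayed at 14, and the remaining markers fell. These are raw counts, not scaled to library totals. The Krtap and Olfr genes took 691, 773, 653, 101 and 235 raw counts at day 2 in mice 1 to 5. At day 6 they took 208, 397, 154, 125 and 233. How far this background accounts for the lower marker counts was not tested. The granulocyte genes Stfa1, Stfa2 and Stfa3, the B lineage gene Vpreb1 and the platelet gene Gp5 did not pass the filter. Itgb5, an integrin subunit gene, gave 1.28 (adjusted p = 0.223).

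By size, the largest increases on chromosome 16 were dominated by poorly characterised genes. Among 105 genes called higher that had a mean of at least 50 counts and rose in 5 of 5 mice, the first was 4931406G06Rik, with 3.83, 14.7, 6.64, 11.5 and 216 CPM at day 2 and 5071, 2625, 5782, 5149 and 3634 CPM at day 6 (8.02 ± 1.76, edgeR adjusted p = 0.0122). It overlaps 4932438H23Rik on the opposite strand, which gave 6.09 (adjusted p = 0.0072), and counts without strand cannot separate the pair. Gm15558, antisense to Clec16a, rose from 3.83 to 39.8 CPM at day 2 to 218 to 527 CPM (5.15 ± 0.86, adjusted p = 0.0042). These 3 held without the 3 day 2 libraries, at 5.24, 4.81 and 4.08, as did Pigx, of glycosylphosphatidylinositol anchor synthesis (5.79 and 3.66), and 4930404I05Rik (5.65 and 2.09). The processed pseudogenes Gm10241, Gm6142 and BC002163 lie inside other genes and resemble expressed copies elsewhere, which makes their counts uncertain. They gave 7.22, 5.88 and 5.54 (adjusted p = 0.0093, 0.0445 and 0.0193), and 1.84, 1.39 and 2.03 without the 3 libraries (adjusted p = 0.177, 0.123 and 0.0817). Cep19, a centrosomal protein gene, and 0610012G03Rik gave 5.50 and 5.13 (adjusted p = 0.016 and 0.0446), and were not called without the 3 libraries, at 2.71 and 1.61 (adjusted p = 0.0735 and 0.151).

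Only 5 of the 150 genes called higher were called in each of the alternative analyses in which they were tested: Tigit, Pigz, Dubr, Gm15868 and Gm34680. Pigz, a mannosyltransferase gene of anchor synthesis, went from 3.35, 14.4, 11.4, 2.29 and 2.60 CPM to 99.6, 123, 86.9, 93.0 and 71.4 CPM (3.69 ± 0.50, edgeR adjusted p = 0.00221, and 5.14 without the 3 libraries). Dubr, a long noncoding RNA gene, went from 13.9, 6.04, 11.4, 9.18 and 6.93 CPM to 248, 102, 411, 231 and 169 CPM (4.26 ± 0.60, adjusted p = 0.00244, and 4.83 without the 3 libraries). Both were named after their values had been seen, and in both the day 2 levels of mice 4 and 5 were no higher than those of mouse 1. The 2.29 CPM of Pigz in the day 2 library of mouse 4 is the level that 1 count gives there.

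The 1 gene of chromosome 16 called lower was Sec14l5, a lipid-transfer protein gene. It was at 26.3, 28.3, 22.3, 41.3 and 38.1 CPM at day 2 and at 7.37, 14.3, 8.14, 8.92 and 9.21 CPM at day 6, and fell by 1.92 on the log2 scale (edgeR adjusted p = 0.0169). It was also called lower without the 3 libraries, at -2.06 (adjusted p = 0.0442), and was named after its values had been seen.

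Of the mitochondrially encoded protein genes, 5 of 11 tested were called higher at day 6. The share of all 13 in counts in genes was 0.18%, 0.20%, 0.20%, 0.95% and 1.91% at day 2 in mice 1 to 5 and 3.64 to 4.07% at day 6 in the same mice. The share was higher at day 6 in 5 of 5 mice (exact paired permutation test, p = 0.0625). The whole of chromosome M went the other way in 3 mice, from 9.27%, 10.3% and 13.4% at day 2 in mice 1, 2 and 3 and 2.46% and 4.37% in mice 4 and 5 to between 5.56 and 6.67% at day 6 (exact p = 0.438). At day 2 the 12S and 16S rRNA genes, mt-Rnr1 and mt-Rnr2, held 9.06%, 10.0% and 13.2% of counts in mice 1, 2 and 3, 1.49% in mouse 4 and 2.39% in mouse 5, and 1.63 to 2.26% at day 6.

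Of 22 genes of chromosome M tested, 10 were called higher and none lower (45.5%, beside 10.0% over all genes). They were 5 protein genes and 5 tRNA genes, the latter mt-Tq, mt-Tm, mt-Ts1, mt-Te and mt-Tp. Of 13 protein genes, 11 were tested. The cytochrome oxidase subunit gene mt-Co1 went from 69.8, 73.3, 87.7, 220.3 and 1425 CPM to 7627, 4077, 7731, 7508 and 6328 CPM (5.13 ± 1.58, edgeR adjusted p = 0.0495). Next to it, mt-Co2 and mt-Co3 gave 4.94 and 5.57 (adjusted p = 0.0311 and 0.017), and the ATP synthase subunit gene mt-Atp6 4.83 (adjusted p = 0.0086). The complex I gene mt-Nd3 had the narrowest spread, from 6.70, 8.69, 7.59, 11.5 and 32.9 CPM to 159.8, 143, 139.8, 201 and 178 CPM (3.60 ± 0.53, adjusted p = 0.00262). Without the 3 libraries 5 of 12 protein genes were called higher, and these were not the same 5. The calls for mt-Co1, mt-Nd3 and mt-Atp6 held, at 2.99, 2.75 and 1.97 (adjusted p = 0.0218, 0.00423 and 0.0312). Those for mt-Co2 and mt-Co3 were lost, at 0.90 and 2.05 (adjusted p = 0.316 and 0.0919), and mt-Nd2 and mt-Cytb were gained, at 2.24 and 2.49 (adjusted p = 0.0348 and 0.0373).

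The other complex I genes mt-Nd1, mt-Nd2, mt-Nd4, mt-Nd5 and mt-Nd6 gave 4.40, 3.73, 4.32, 2.83 and 5.03, and the cytochrome b gene mt-Cytb 4.84, with adjusted p from 0.0565 to 0.132 over all libraries. Their day 6 levels lay above all of day 2, and the day 2 spread was wide. The rRNAs mt-Rnr1 and mt-Rnr2 gave 0.03 (adjusted p = 0.992) and -0.67 (adjusted p = 0.857), with day 2 and day 6 overlapping.

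**Figure D4:**
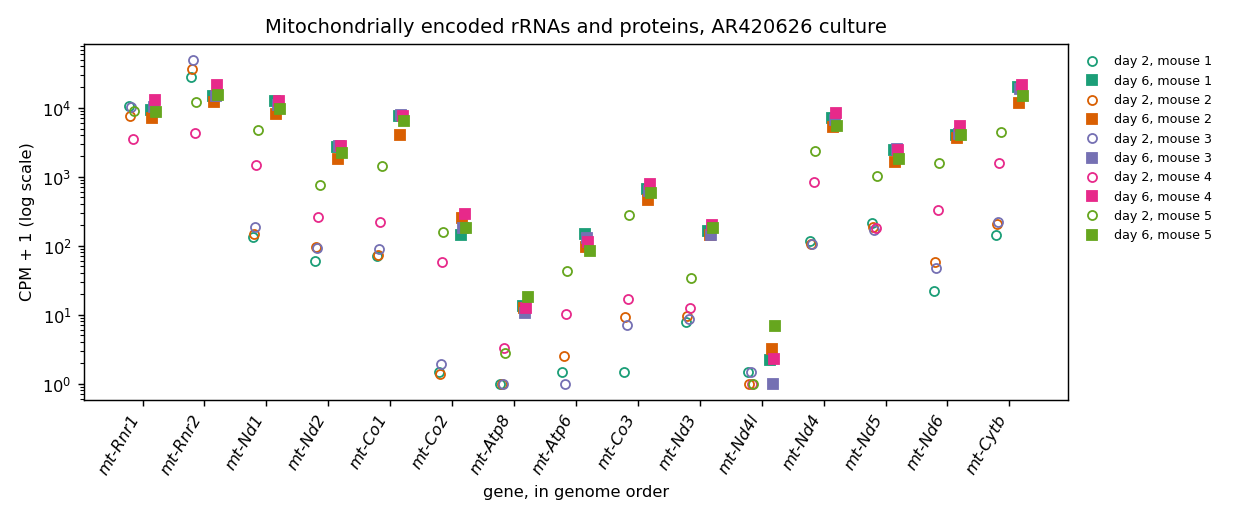
Mitochondrially encoded rRNA and protein genes in genome order (x axis) against CPM + 1 on a log y axis, with open circles for day 2, filled squares for day 6 and 1 colour per mouse. The 2 rRNAs overlap between days, and for most protein genes the day 2 libraries of mice 1, 2 and 3 lie lowest, with mouse 5 nearest to day 6.

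Vehicle cultures of the same mice also had far more genes of chromosome 16 called higher than lower at day 6, with 218 of 579 called higher (37.7%, beside 13.6% over all genes) and 12 lower (2.07%). Of 149 genes called higher with AR420626 and tested in vehicle, 112 were called higher in both. The vehicle day 2 libraries that stood apart were those of mice 2, 3 and 4, with rho to naive cells of 0.15, 0.20 and 0.36 on chromosome 16, and so were not from the same mice as with the agonist. The difference of the day effect between treatments, tested as an interaction over all 20 libraries, was called for 1 of 730 chromosome 16 genes (0.137%, beside 0.0519% over all genes). Of the 730, 52 had an unadjusted p under 0.05, a level that some genes pass by chance. The share over all genes was not counted at that level. DESeq2 called 8 of 730, 5 positive and 3 negative, beside 49 positive and 26 negative of 23141 over all genes. No gene of chromosome M was called. In vehicle alone, 18 of 21 chromosome M genes tested were called higher at day 6, among them all 11 protein genes tested (median log2 fold change 5.31). The mitochondrial rRNAs held 13.8 to 56.4% of counts in the vehicle day 2 libraries, beside 1.49 to 13.2% with AR420626.

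The chromosome 16 gene called by edgeR for the interaction was Cd200r3. In vehicle it went from 62.6, 14.8, 12.5, 19.5 and 17.2 CPM at day 2 to 469, 275, 167, 1200 and 220.1 CPM at day 6, a log2 fold change of 4.04 (edgeR adjusted p = 0.00491), and every vehicle day 6 library lay above every AR420626 day 6 library. The interaction was -4.66 ± 0.90 (edgeR adjusted p = 0.0273). Leaving out mouse 1, 2, 3 or 4 moved the adjusted p to between 0.0908 and 0.493 with the size at -4.25 to -5.14, and leaving out mouse 5 gave 0.000928. Tigit differed in the other direction. Vehicle levels were 3.91, 3.42, 0.89, 8.42 and 1.91 CPM at day 2 and 24.1, 19.5, 5.60, 33.3 and 15.6 CPM at day 6 (2.45, adjusted p = 0.00553), so that it rose in both treatments, and the interaction of 4.02 ± 0.90 did not pass the test (edgeR adjusted p = 0.105). Without mouse 5 that adjusted p was 0.0115, and over the other alternatives it ran from 0.00032 to 0.986. Of 12 mast cell and basophil markers, among them Cd200r3 and otherwise on other chromosomes, 2 of 6 tested were called higher at day 6 in vehicle, Cd200r3 being 1 of them, and 0 of 5 with AR420626, beside 13.6% and 10.0% over all genes. On those other chromosomes levels followed naive cells poorly, and a value there may not measure the named gene. Cd200r3 had been picked by its own interaction call, so these counts say little about such cells. The sort had removed cells stained for FcεR1, the IgE receptor of mast cells and basophils, and the part of such cells in the Cd200r3 result was not tested. For Cd200r1 and Runx1 the interaction was 0.65 and 2.09 (adjusted p = 0.994 and 0.934). Cd200r4 and Gm15558, taken here for their day 6 values, did not overlap between treatments at day 6. Cd200r4 was at 177 to 1927 CPM in vehicle and 27.1 to 127 CPM with AR420626. Gm15558 was at 20.1 to 65.7 and 218 to 527 CPM. Their interactions of -2.08 and 4.33 were not called (edgeR adjusted p = 0.984 and 0.269).

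**Figure D5:**
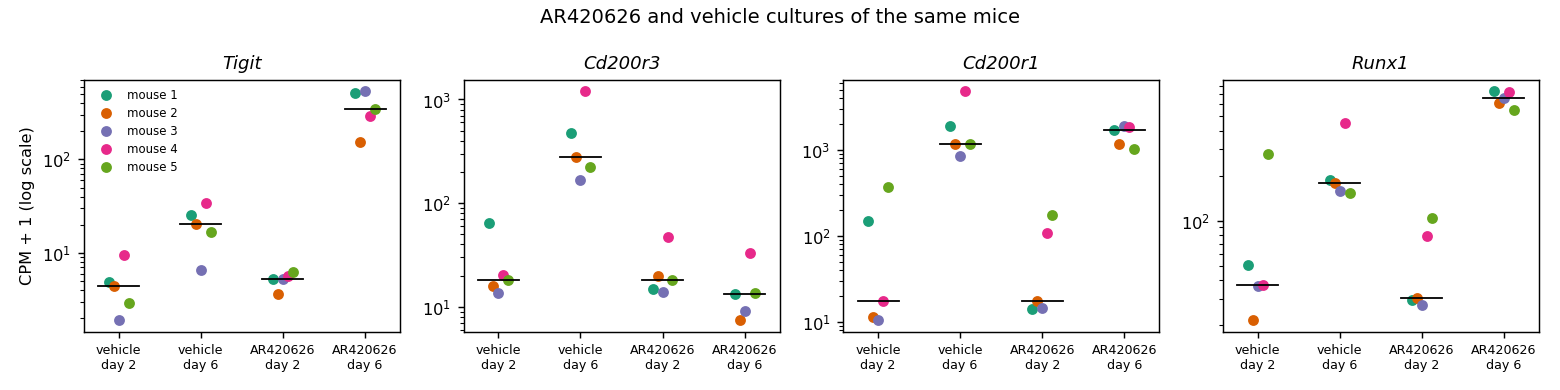
Levels of 4 chromosome 16 genes in vehicle and AR420626 culture at day 2 and day 6 (x axis) as CPM + 1 on a log y axis, with 1 point per mouse and a line at the median. Cd200r3 is higher at day 6 in vehicle alone, the AR420626 day 6 levels of Tigit lie above those in vehicle in all 5 mice, and Cd200r1 reaches like levels in both.

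Outside chromosomes 16 and M, 1319 of 14151 genes tested were called higher (9.32%) and 167 lower (1.18%), with a median log2 fold change of -0.29. Reads had been aligned to a pseudogenome of an older build and converted to mm10, and whether reads on these chromosomes reached the gene they came from was not tested, so a value under Egfr or any other symbol here may not measure that gene. Under the symbol Egfr, the receptor gene of the epidermal growth factor family, counts stood at 43.5, 43.8, 37.9, 68.8 and 85.7 CPM at day 2 and at 688, 837, 623, 844 and 463 CPM at day 6 (3.42 ± 0.84, edgeR adjusted p = 0.0198, and 0.070 to 0.112 without mouse 1, 2, 3 or 4). Without the 3 day 2 libraries it was 3.11 (adjusted p = 0.00366). In vehicle they stood at 23.9 to 45.6 CPM at day 2 and at 5.60 to 30.1 CPM at day 6, and the interaction was called (5.03 ± 0.97, edgeR adjusted p = 0.0273), though without mouse 1, 2, 3 or 4 its adjusted p ran from 0.168 to 0.350 with the size at 4.57 to 5.07. Of 14 genes that the study names in its receptor work or among the genes of its locus, 7 were tested and Egfr was the only call. Besides Ffar1 and Dmkn, the genes tested without a call were Il1rl1, Gata3, Il2ra and Cd22, which gave -1.38, 0.63, -0.14 and 1.02 (adjusted p from 0.119 to 0.945), and Ffar3, Ffar2, Il5, Il13, Il10, Areg and Psenen did not pass the filter. Ffar3 was at 0 to 5.26 CPM at day 2 and 0 to 7.64 CPM at day 6. Of 25 ILC2 identity genes 11 were tested and none was called, and of 28 proliferation genes 18 were tested, with 1 higher and 1 lower.

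The largest increases outside chromosomes 16 and M stood under AC109138.6, Ighv6-3, Dram2 and 5830444B04Rik, with log2 fold changes of 8.74, 8.14, 8.05 and 7.66 (edgeR adjusted p from 0.00926 to 0.0464). Without the 3 libraries they gave 2.88, 4.03, 6.06 and 4.10, and the first was not called (adjusted p = 0.0933). Ighv6-3, an immunoglobulin V segment, reached 8006 to 23671 CPM at day 6. The 5 largest decreases stood under Gm20125, Gm17535, BC067074, Gm10553 and Gm10715, at -3.85, -2.27, -2.21, -1.77 and -1.65 (adjusted p from 0.0174 to 0.0453), and at -1.86, -2.94, -0.59, -2.26 and -2.58 without the 3 libraries, where BC067074 was not called (adjusted p = 0.573).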

How the data were processed

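Bulk RNA-seq libraries were analysed from the raw counts per gene that the authors deposited. Per the labels and the study's methods, the authors trimmed and checked reads with fastp and FastQC, aligned them with STAR and counted them with HTSeq from an unstranded kit. CC030 reads were aligned to a pseudogenome of an older mouse build and converted to mm10. Which annotation was counted against is not stated in the sources read. The HTSeq summary rows were left out of the tests and used only for the share of alignments counted in genes.

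Groups came from the labels. Counts were filtered (edgeR 4.0.16 filterByExpr, minimum 10, total 15), scaled by TMM and tested in R 4.3.3 with the quasi-likelihood test, the mouse as a block, and Benjamini-Hochberg adjustment over all genes tested at a threshold of 0.05. SE was the log2 fold change divided by the square root of F. Printed levels are CPM on TMM-scaled totals of all 20 cultured libraries, whereas fold changes come from the fit over 10, so their scales differ slightly. The mice pair the samples because the labels give the same animal. Correlations of same-numbered deviations over all genes tested ran from -0.071 to 0.17. No pair of replicates was alike within sampling noise. Replicates are separate animals.

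Named genes were the 12 largest increases on chromosome 16 and the 5 largest in each direction elsewhere, among called genes that averaged 50 counts or more and moved one way in 5 of 5 mice, plus up to 4 members of each list. Other names are marked, and 1 gene that the rule names outside chromosomes 16 and M is not reported here. Members, lists and alternatives were chosen with earlier results of these data known, and the fits on the day 2 libraries of mice 4 and 5 were added after the data were seen. Alternatives were DESeq2 1.42.0, other scalings and filters, no block, leaving out mice, and thinning to 227445 counts. On simulated counts for this comparison (11690 genes), 2% of 2-fold, 26% of 4-fold, 68% of 8-fold and 74% of 16-fold changes were recovered, with 1 false call. The simulation gave all genes 1 common dispersion, no mouse effect and, apart from the changed genes, the same composition in every library. The real day 2 libraries differed from each other, so the rate of false calls among them was not measured. Upstream sequences are from RefSeq (GRCm38.p6). A planned search for a shift in gene positions was not informative and is not reported.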

Additional observations from a re-analysis of the deposited data

Results flagged for a closer look

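In 5-library groups, a library whose gap to its nearest neighbour exceeded Dixon's 95% critical value was looked at again. Chance flags about 1 in 20 groups, and 200 groups were tested. The day 2 library of mouse 5 stood out in 45 of them, each time above the other day 2 libraries. This held for Slc25a1, Ufd1, Pcyt1a, Gabpa, Etv5, Gata3, Crebbp, Senp5 and Pak2, at 216.5, 115.2, 77.93, 484, 94.38, 31.17, 107.4, 109.1 and 323 CPM. It was also high for Tfrc, Mrpl39, Parp9, Ifngr2, Il10rb, Ifnar2, Sod1, Pigx and Dram2, at 1206, 32.04, 47.62, 75.33, 38.1, 44.16, 258.9, 275.3 and 371.5 CPM. It was also high for Hspa13, Cip2a, Fbxo45, Cep19, Socs1, Mrps6, 4932438H23Rik and Tnp2, at 190.5, 210.4, 116.9, 182.7, 794.9, 173.2, 93.51 and 31.17 CPM. It was also high for Cd200r4, mt-Nd1, mt-Co1, mt-Atp6, mt-Co3, mt-Nd3, mt-Nd5, mt-Nd6 and Ighv6-3, at 43.29, 4827, 1425, 42.43, 272.7, 32.9, 1012, 1554 and 1890 CPM. It was also high for Muc4, BC002163, 5830444B04Rik, Gm10241, 4931406G06Rik, Gm15558, Rpl24, 0610012G03Rik and AC109138.6, at 98.71, 271.9, 965.4, 222.5, 215.6, 39.83, 191.4, 588.8 and 174.9 CPM. Gm7204 was high there at 135.9 CPM. The day 6 library of mouse 2 stood out with 183.3 CPM for Nde1, 538.5 CPM for Eif4a2, 204.7 CPM for Cip2a, 14.26 CPM for Sec14l5, 445.8 CPM for 0610012G03Rik. The day 6 library of mouse 3 stood out with 74.65 CPM for Mrpl39, 59.72 CPM for Cd22. The day 6 library of mouse 4 stood out with 31.84 CPM for Cd200r3, 5515 CPM for mt-Nd6 and with 6.668% of counts on chromosome M. The day 2 library of mouse 4 stood out with 45.9 CPM for Cd200r3.

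The day effect differed between treatments, by the interaction test, for Cd200r3 (-4.655 on the log2 scale, edgeR adjusted p = 0.0273) and under the symbol Egfr (5.029, edgeR adjusted p = 0.0273). Both calls were lost when mouse 1, 2, 3 or 4 was left out, or without the mouse as a block.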

How the results depend on the processing

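Counts of calls moved with most settings, and the cause was not tested. In the order higher and lower on chromosome 16, higher on chromosome M, higher and lower elsewhere, the counts were 150, 1, 10, 1319 and 167. DESeq2 gave 256, 8, 18, 2077 and 447. Scaling on chromosome 16 gave 92, 53, 13, 703 and 3195. At least 10 counts in every library gave 95, 17, 7, 624 and 808, and no filter gave 188, 1, 12, 1587 and 76. One fit over all 20 libraries gave 185, 4, 17, 1659 and 179. Thinning gave 60, 16, 10, 487 and 676. Without mice 4 and 5 the counts were 312, 10, 18, 2617 and 501, without the day 2 libraries of mice 1, 2 and 3 they were 62, 1, 8, 744 and 150, and mice 4 and 5 alone gave 5, 0, 0, 16 and 2. Leaving out 1 mouse at a time gave 28 to 290, 0 to 4, 2 to 19, 219 to 2234 and 3 to 225.

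Without the block that pairs the days by mouse, the counts were 111, 8, 7, 1111 and 343. The interaction, with 1 call on chromosome 16 and 11 elsewhere, gave 0 and 2 without the block, 8 and 67 with DESeq2, 2 and 4 with at least 10 counts in every library, 0 and 0 in mice 4 and 5 alone, and 0 to 3 and 0 to 30 when 1 mouse was left out.

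Signs turned for genes that had not passed the test and for Gm7204, which had and gave -0.26 without the day 2 libraries of mice 1, 2 and 3. On the chromosome 16 scale, Pcyt1a, Gata3, Ifngr2, Ifnar2, Cd22 and mt-Rnr1 gave -0.11, -0.60, -0.048, -0.0052, -0.21 and -1.22. After thinning, Pcyt1a and mt-Rnr1 gave -0.61 and -1.46. Without the day 2 libraries of mice 1, 2 and 3, Gata3, Tfrc, Mrps6, Rpl35a and Rpl24 gave -0.34, -0.18, -0.38, -1.28 and -0.21, and Il2ra and mt-Rnr2 0.45 and 0.90. In mice 4 and 5 alone, Gata3, Mrps6, Rpl35a, Rpl24 and mt-Rnr2 gave -0.17, -0.043, -1.22, -0.17 and 1.18. Without the replicate block Rpl35a and mt-Rnr1 gave -0.11 and -0.0219. Il2ra gave 0.015 over 20 libraries and mt-Rnr1 -0.79 with the stricter filter and -0.085 without mice 4 and 5. With 1 mouse left out, Il2ra ran from -0.49 to 0.55 and mt-Rnr1 from -0.28 to 0.27.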
